A study of Mus musculus with 13 samples.

Results

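The 10 genes described here belong to the transforming growth factor beta (TGF-beta) pathway, as 4 receptors, 4 Smads and 2 Smad co-repressors, and were followed through 13 RNA sequencing libraries of CD4+ T helper cells. They were taken by gene name, and all 10 were found among the 56748 genes of the table and passed the filter on low counts, as did 14059 genes in all. In T helper cells sorted for an active Eomes reporter, the receptors Acvrl1 and Tgfbr3 stood 26.9-fold and 4.74-fold below their level in reporter-negative cells after the same treatment. The inhibitory Smad7 stood 2.17-fold lower, Smad3 stood 1.48-fold higher, and the main receptor Tgfbr2 differed little. In the 2 comparisons that could be tested, of genotype and of treatment, none of the 10 passed the threshold. Few genes did at all, 0.0142% and 0.0427% of those tested.

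TGF-beta ligands bring together a type II receptor and a type I receptor, both kinases, and the type I receptor then phosphorylates a receptor-regulated Smad. That Smad joins Smad4, enters the nucleus and acts on target genes with other factors. Smad7 blocks the type I receptor and is itself a target of the pathway, and Ski and SnoN, the product of Skil, hold Smad complexes in a repressed state. In CD4+ T cells the pathway is known for restraining activation and effector differentiation and for supporting regulatory and tissue-resident fates.

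Cells came from spleens of mice carrying Vk12653 multiple myeloma, a transplantable plasma cell tumour, and a Foxp3-Thy1.1 reporter. All mice received an antibody that depletes NK1.1+ cells (50 µg on days −2 and 5 around the tumour graft on day 0), then 20 µg of an agonist antibody against the costimulatory receptor 4-1BB or of a control IgG on days 10, 13 and 16, and spleens were taken on day 18. The 5 groups were GFP+ cells (n = 3) and GFP− cells (n = 3) of Eomes-GFP mice given 4-1BB antibody, undivided cells of Eomes-GFP mice given control IgG (n = 2), and undivided cells of Eomes-TKO mice given 4-1BB antibody (n = 2) or control IgG (n = 3). All were sorted as CD4+, T cell receptor positive and Thy1.1 negative, which removes cells with the Foxp3 reporter. GFP+ and GFP− libraries of one number carry one library prefix, read here as one animal. The labels do not describe how the Eomes-TKO allele was made, and neither age nor sex is given. Nothing else says that replicates were separate animals, so p-values measure the spread between libraries.

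Libraries held 6080975 to 10881146 estimated counts. Levels are CPM after scaling with TMM factors, and 3 counts correspond to 0.271 to 0.468 CPM. Eomes, the gene of the reporter, stood at 570 to 706 CPM in GFP+ cells, at 14.0 and 16.8 CPM in undivided Eomes-GFP cells and between 1.36 and 8.03 CPM in the other 8 libraries. Foxp3 was at most 2.65 CPM. Cd4 and Cd3e were present in every library, and the 10 T helper markers summed to 4240.3 CPM or more. Endothelium is the cell type best known for Acvrl1. Of its 10 markers, Tie1, Emcn and Cldn5 had no count in any library, and the sum over the 10 lay between 0.133 and 1.29 CPM.

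The 10 genes were chosen by name as one pathway, with fold changes between GFP+ and GFP− cells in view, where Acvrl1 was among the genes with the largest difference. Their values in that comparison, and in the others that use those 6 libraries, are therefore given as a description, without p-values. Counts of members past the threshold in these comparisons also describe and give no independent support. Each difference is a log2 fold change ± its standard error (SE), taken from an edgeR model fitted to all 13 libraries. In that model, 7 of the 10 were lower and 1 higher in GFP+ than in GFP− cells at an adjusted p under 0.05, where 37.1% of all genes passed (16.5% lower and 20.7% higher). With upper-quartile scaling the split of all called genes turned, to 2186 higher and 3095 lower. The median over the 10 was −0.50 against 0.02 over all genes tested. In bulk RNA, fewer cells expressing a gene and less RNA per cell cannot be told apart.

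**Figure D1:**
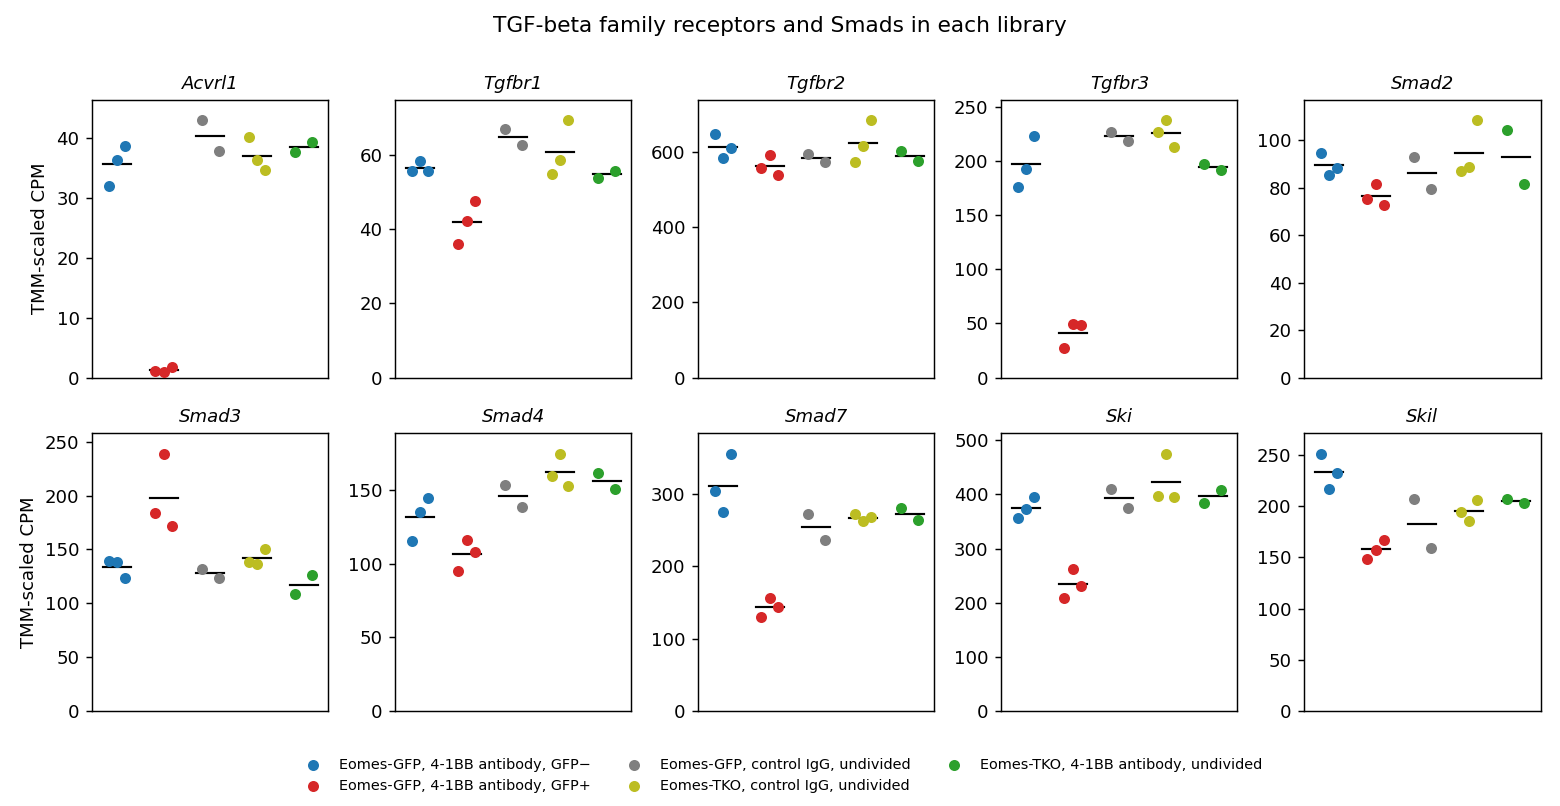
Each panel plots 1 gene, with TMM-scaled CPM on a linear axis from 0 and 1 point per library in the 5 groups (black line: group mean, n = 2 or 3). GFP+ points (red) lie below all others for Acvrl1, Tgfbr1, Tgfbr3, Smad7 and Ski, above all others for Smad3, and overlap with others for Tgfbr2, Smad2, Smad4 and Skil.

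Among the receptors, Acvrl1 encodes ALK1, a type I receptor that binds BMP9 and BMP10 and is best known from endothelium. The 3 GFP+ libraries held 1.11, 0.916 and 1.83 CPM of it, the 3 GFP− libraries 32.1, 36.3 and 38.7 CPM. Undivided Eomes-GFP control cells held 42.99 and 37.9 CPM, Eomes-TKO cells 40.1, 36.3 and 34.7 CPM under control IgG and 37.6 and 39.3 CPM after 4-1BB antibody. The 10 libraries other than GFP+ thus stayed within 32.1 to 42.99 CPM, and only the GFP+ libraries stood apart, at a few counts above the floor. The difference from GFP− cells was −4.75 ± 0.20 (SE), and between −5.21 and −4.37 within the 3 animals.

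Tgfbr3 encodes betaglycan, a co-receptor that presents ligand to the type II receptor. Its levels were 26.9, 49.1 and 48.6 CPM in GFP+ cells and 176, 193 and 223 CPM in GFP− cells, a difference of −2.24 ± 0.18. The other 7 libraries ran from 192 to 237 CPM, so that again only GFP+ cells were low, although they kept a level well above the floor. Its estimated counts were not whole, to within 0.01, in any of the 13 libraries, and its level is less certain where reads were divided between gene models.

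Tgfbr1 encodes ALK5, the type I receptor for TGF-beta itself. It stood at 35.9, 42.0 and 47.4 CPM in GFP+ cells against 55.6, 58.4 and 55.5 CPM in GFP− cells (−0.43 ± 0.12), and the other libraries held 53.7 to 69.2 CPM. The difference was smaller than for Acvrl1 or Tgfbr3 but the 2 sets of libraries did not overlap. Tgfbr2, the type II receptor that every TGF-beta signal needs, stood at 558, 592 and 538 CPM in GFP+ and 646, 584 and 609 CPM in GFP− cells. These overlapped, with a difference of −0.12 ± 0.09 and a 95% interval from −0.32 to 0.07.

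Smad3, a receptor-regulated Smad that binds DNA directly, was the 1 member with a higher level in GFP+ cells. It stood there at 184, 239 and 172 CPM, against 139.6, 138 and 123 CPM in GFP− cells (0.57 ± 0.12) and 108 to 149.95 CPM over all 10 other libraries. Every GFP+ library was above every other one, and GFP+ replicate 2 was the highest. Smad2, the other receptor-regulated Smad of TGF-beta, went the opposite way by a small amount, with 75.4, 81.7 and 72.5 CPM in GFP+ and 94.8, 85.4 and 88.4 CPM in GFP− cells (−0.23 ± 0.12, 95% interval −0.48 to 0.03). Its GFP+ values overlapped the control libraries, which began at 79.6 CPM.

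Smad4, the common partner of the receptor-regulated Smads, held 95.5, 117 and 108 CPM in GFP+ and 115, 135 and 145 CPM in GFP− cells (−0.30 ± 0.11). The highest GFP+ library lay above the lowest GFP− library, though in each of the 3 animals GFP+ was the lower of the pair. Smad7 stood at 129, 157 and 144 CPM in GFP+ and 304, 275 and 355 CPM in GFP− cells (−1.12 ± 0.11). Its other 7 libraries lay between 236 and 281 CPM, below 2 of the GFP− libraries and above every GFP+ one.

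Ski and Skil encode the 2 co-repressors, which TGF-beta signalling removes by degradation and of which Skil is also a transcriptional target. Ski stood at 209, 262 and 231 CPM in GFP+ and 357, 373 and 395 CPM in GFP− cells (−0.68 ± 0.11), with 375 to 475 CPM elsewhere. Skil stood at 149, 158 and 167 CPM in GFP+ and 251, 217 and 233 CPM in GFP− cells (−0.57 ± 0.10). Here undivided cells lay between, and 1 control Eomes-GFP library reached down to 159 CPM, inside the GFP+ range.

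Within the 3 animals, 8 members were lower in GFP+ cells each time, Smad3 was higher each time, and Tgfbr2 was lower in 2 and higher in 1. The share of all genes that kept the same direction in all 3 animals is not given here, so these counts only describe the members. Libraries of the 2 fractions did not overlap for 8 members, all but Tgfbr2 and Smad4, against 51.2% of all genes tested. Against all 10 other libraries at once, GFP+ cells stood apart for 6 members, 5 below and Smad3 above, against 34.0% of all genes (15.1% below and 18.9% above). Levels of different genes were compared per kilobase of merged exons of GENCODE M21. In GFP− cells Tgfbr2 (74.9 ± 3.82 SD), Smad7 (68.9 ± 9.03) and Ski (67.4 ± 3.45) led, each within the spread of its neighbour, and Smad2 (10.2 ± 0.544), Tgfbr1 (8.64 ± 0.25) and Acvrl1 (8.37 ± 0.792) came last. In GFP+ cells Tgfbr2 (68.7 ± 3.33) stood alone at the top. Ski (42.1 ± 4.85), Smad3 (35.7 ± 6.45) and Smad7 (31.7 ± 3.05) followed, each within the spread of its neighbour. Tgfbr3 moved from the fifth to the ninth place (6.34 ± 1.94), beside Tgfbr1 (6.39 ± 0.88).

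Promoter sequences are shown for the member that stood higher (Smad3), one that stood lower (Tgfbr1) and the one that differed least (Tgfbr2) in GFP+ cells. They are the 250 bases before the transcription start, from RefSeq on GRCm38.p6, written 5′ to 3′ on the gene's strand with the Smad box CAGAC in capitals where present on either strand.
Smad3, chr9:63757995-63758244, minus strand: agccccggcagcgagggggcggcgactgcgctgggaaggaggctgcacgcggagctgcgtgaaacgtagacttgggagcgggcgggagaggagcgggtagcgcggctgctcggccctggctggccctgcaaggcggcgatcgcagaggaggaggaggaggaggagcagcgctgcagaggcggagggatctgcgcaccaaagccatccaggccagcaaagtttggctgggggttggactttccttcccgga
Tgfbr1, chr4:47352972-47353221, plus strand: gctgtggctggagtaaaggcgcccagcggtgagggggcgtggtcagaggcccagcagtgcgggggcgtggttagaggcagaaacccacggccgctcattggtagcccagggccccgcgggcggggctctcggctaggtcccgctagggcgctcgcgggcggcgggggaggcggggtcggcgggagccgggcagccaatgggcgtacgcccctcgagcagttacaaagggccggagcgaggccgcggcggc
Tgfbr2, chr9:116175364-116175613, minus strand: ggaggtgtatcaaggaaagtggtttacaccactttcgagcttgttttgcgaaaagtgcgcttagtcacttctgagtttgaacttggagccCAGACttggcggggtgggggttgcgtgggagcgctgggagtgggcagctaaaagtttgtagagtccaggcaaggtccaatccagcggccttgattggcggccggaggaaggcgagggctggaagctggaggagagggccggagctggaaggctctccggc
A promoter entry was matched for 4 of the 10 members. The T-box motif AGGTGTG, the kind of letters that Eomes and its relatives bind, was on neither strand of these windows or of that of Ski, against 5.11% of 32841 windows of the same length. The Smad box was in the Tgfbr2 window once and in neither of the other 2 printed, against 42.2% of all windows. A second Tgfbr1 window, at chr4:47385966-47386215 and not printed, held 1 Smad box. The Smad3 and Tgfbr1 windows printed were 69.2% and 74.8% G and C.

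The genotype comparison, Eomes-TKO against Eomes-GFP under control IgG, used none of the libraries from which the members were proposed. No member passed the threshold in either direction, where edgeR called 2 genes in all, 0.0142% of those tested. None had an unadjusted p under 0.05, against 430 genes (3.06%), and every member's adjusted p was 1. Differences ran from −0.12 ± 0.16 for Acvrl1 to 0.15 ± 0.12 for Smad4, and the 95% intervals of all 10 lay between −0.46 and 0.43. Smad3 was the 1 member whose libraries did not overlap, at 138, 137 and 149.95 CPM in Eomes-TKO and 132 and 123 CPM in Eomes-GFP cells, and 9.69% of all genes were separated in that direction. Eomes was at 14.0 and 16.8 CPM in these undivided Eomes-GFP cells, so that a difference limited to Eomes-expressing cells may not have been detectable.

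After 4-1BB antibody in Eomes-TKO mice, likewise, none of the 10 was called against control IgG, where 6 genes were called in all, each higher (0.0427%). None had an unadjusted p under 0.05, against 506 genes (3.60%). Smad3 came nearest, at 108 and 126 CPM after 4-1BB antibody against 138, 137 and 149.95 CPM (−0.27 ± 0.13, 95% interval −0.56 to 0.01, edgeR adjusted p = 1). Tgfbr3, with 197 and 192 against 227, 237 and 213 CPM (−0.22 ± 0.19, 95% interval −0.61 to 0.18), was the other member without overlap, also below, as were 8.78% of all genes. For the other 8, intervals lay between −0.44 and 0.39, which leaves room for differences of up to about that size.

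**Figure D2:**
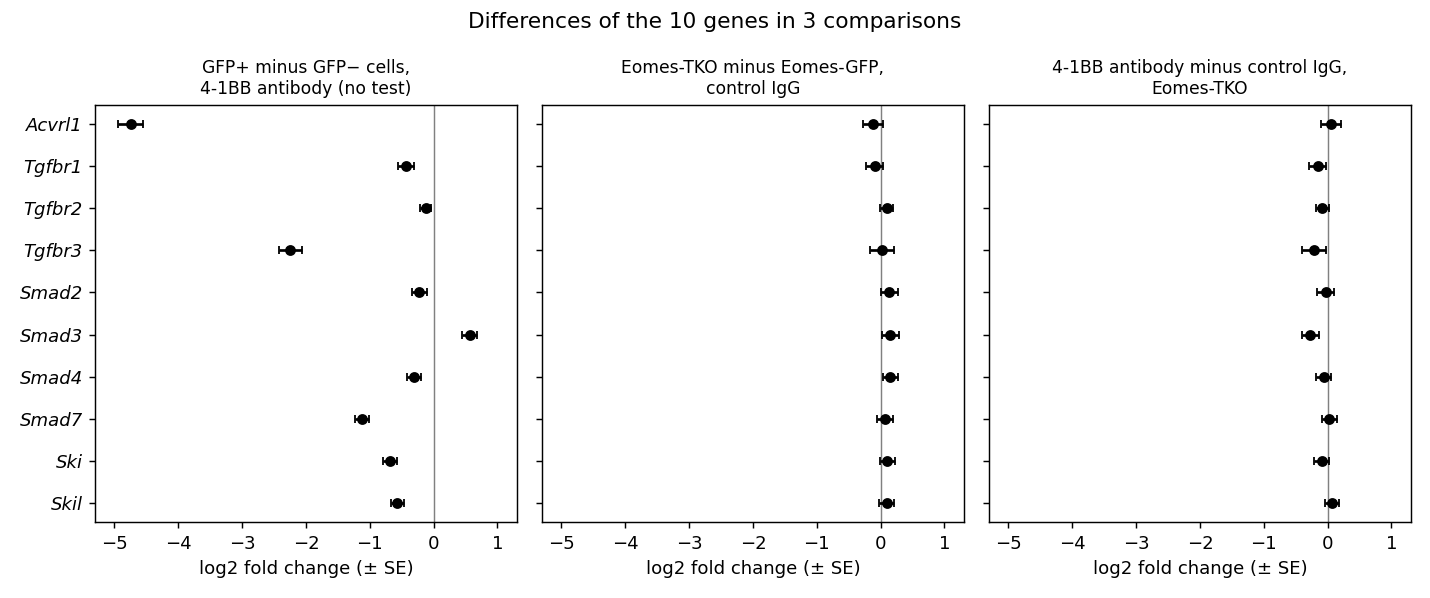
Points give the log2 fold change of each of the 10 genes with its SE (bars), from the model of all 13 libraries, on the same horizontal axis in 3 comparisons. Differences between GFP+ and GFP− cells run from −4.75 (Acvrl1) to 0.57 (Smad3), whereas in the genotype and treatment comparisons all lie between −0.27 and 0.15.

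The remaining comparisons reuse the GFP+ or GFP− libraries and are given side by side. Treated Eomes-TKO cells against treated GFP− cells showed no member past the threshold (0.0427% of all genes), with differences between −0.19 and 0.25. GFP− cells against undivided Eomes-GFP control cells also had none past it (0.761% of all genes). Skil (0.35 ± 0.12) and Smad7 (0.29 ± 0.12) were the members furthest above the controls there, Skil at 217 to 251 against 159 and 207 CPM. With 1 library left out, Skil ran from 0.18 (without control replicate 2) to 0.55 (without control replicate 1). Smad7 ran from 0.19 (without GFP− replicate 3 or control replicate 2) to 0.40 (without control replicate 1). GFP+ cells against these controls had 6 members lower and 1 higher (34.2% of all genes called, 15.4% lower and 18.8% higher, but 2130 genes higher and 2950 lower with upper-quartile scaling), with Acvrl1 at −4.93 ± 0.21, Tgfbr3 at −2.42 ± 0.19, Smad7 at −0.83 ± 0.12 and Smad3 at 0.63 ± 0.13. Skil was not among them (−0.21 ± 0.11, but −0.39 without control replicate 2 and −0.05 without control replicate 1). Treated Eomes-TKO cells against GFP+ cells had 7 higher and 1 lower (34.6% of all genes, 15.7% higher and 18.8% lower, but 3126 higher and 2019 lower with upper-quartile scaling), with Acvrl1 at 4.86 ± 0.21 and Smad3 at −0.76 ± 0.13.

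The 5 genes whose log2 CPM followed Acvrl1 most closely over the 13 libraries, among 9352 genes averaging a log2 CPM of 2 or more, were Il6ra (Pearson r = 0.997), Ramp1 (0.995), Igfbp4 (0.995), Vipr1 (0.995) and Dapk1 (0.995). All 5 were low in the GFP+ libraries alone, Il6ra, the interleukin-6 receptor, at 46.7 against 498 CPM in GFP− cells. Such values mostly repeat the split between GFP+ and all other libraries. Among the members, Tgfbr3 was nearest to Acvrl1 over the 13 libraries (r = 0.98), and Smad3 ran opposite to it (r = −0.88). After subtracting group means, these values were 0.30 and −0.69, which share each library's depth and scaling.

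The other genes of the pathway, from 7 lists of ligands, receptors, Smads, regulators, nuclear partners, kinases and targets, were tested in the same model. These lists, too, were chosen with earlier results of these data known, so their counts and p-values describe and give no independent support. Of 131 listed genes 91 passed the filter on low counts, and in GFP+ against GFP− cells 22 were higher and 27 lower, 53.8% against 37.1% of all genes. Their median difference was −0.01. A gene under the cutoff of the low-count filter (1.17 CPM) in every library of one fraction could enter the test only through other libraries. Counted without the 10 such genes, 19 were higher and 20 lower of 81, 48.1% against 36.1% of all genes counted in the same way. No listed gene was called by edgeR in the genotype or the treatment comparison, where 0.0142% and 0.0427% of all genes were.

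**Figure D3:**
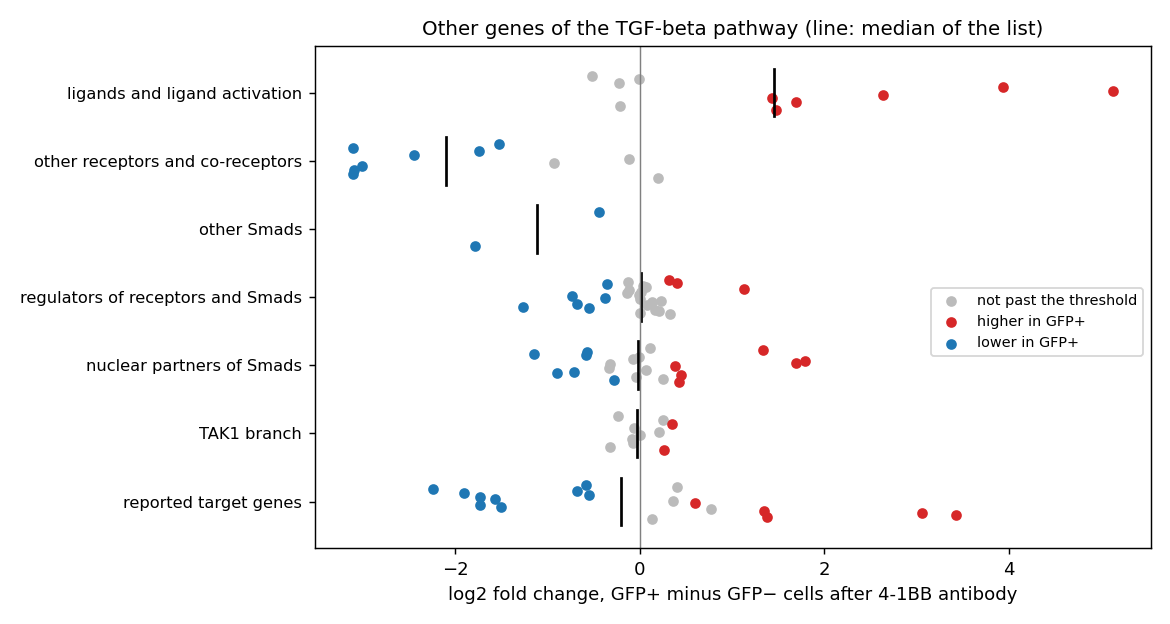
Each point is 1 tested gene of a list, placed by its log2 fold change in GFP+ minus GFP− cells, red where higher and blue where lower at an adjusted p under 0.05, and the black line is the median of the list. Receptors (7 of 10 lower) and the 2 other Smads lie to the left and ligand genes to the right (6 of 10 higher), while the remaining 4 lists spread to both sides or stay near 0. Over all genes tested, 16.5% were lower and 20.7% higher. The outermost points include genes under the filter cutoff in every library of one fraction, among them 2 of the 6 ligand genes and 3 of the 7 receptors.

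Among the ligands and the genes that activate them, 6 of 10 tested were higher and none lower (median 1.45), or 4 of 8 (median 0.71) among those reaching the cutoff in both fractions. Over all genes tested, 20.7% were higher. Gdf11, a ligand of the activin branch, rose to 68.1 ± 6.02 from 21.1 ± 3.25 CPM (SD, n = 3 and 3, adjusted p = 3.23e-07), and Bmp7 to 33.5 ± 4.22 from 12.1 ± 4.36 CPM (adjusted p = 0.000235). The integrin chains Itgav and Itgb8, which together release active TGF-beta from its latent form, also rose. Itgav went from 71.9 ± 3.47 to 194 ± 8.54 CPM (1.43 ± 0.11, adjusted p = 1.15e-07) and Itgb8 from 3.28 ± 2.33 to 20.1 ± 9.86 CPM (2.64 ± 0.64, adjusted p = 0.00764). Tgfb1, the main ligand of T cells, stood at 194 ± 8.39 and 195 ± 18.3 CPM without a call (−0.01 ± 0.12). The other 2 called genes, Lrrc32 and Ltbp4, were named after their values were seen. They stood at 1.74 and 1.85 CPM in GFP+ and at most 0.101 CPM on average in GFP− cells, and so could enter the test only through GFP+ cells.

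Of the other receptors 7 of 10 tested were lower and none higher (median −2.10), or 4 of 7 (median −1.74) among those reaching the cutoff in both fractions, which leaves out Bambi, Eng and Tdgf1. Over all genes tested, 16.5% were lower. Acvr1b, the type I receptor for activin, fell to 7.28 ± 1.36 from 62.6 ± 0.768 CPM (−3.11 ± 0.15, adjusted p = 1.51e-09), and its type II partner Acvr2a to 0.80 ± 0.564 from 6.90 ± 0.819 CPM (−3.10 ± 0.38, adjusted p = 1.85e-05). Acvr2a was near the floor in GFP+ cells, at 1.39, 0.262 and 0.752 CPM. Replicate 2 was under 3 counts (0.393 CPM there), and only replicate 1 reached the filter cutoff. Rgmb, a BMP co-receptor, fell to 4.14 ± 0.507 from 35.9 ± 3.80 CPM (−3.11 ± 0.17). Nrp1, which binds TGF-beta among other ligands, fell to 14.4 ± 5.42 from 48.6 ± 2.21 CPM (−1.74 ± 0.29, adjusted p = 0.000455). The BMP type II receptor Bmpr2 was at 27.6 ± 3.33 and 29.99 ± 4.31 CPM without a call. Both tested Smads of the BMP branch were lower, Smad1 by 1.79 ± 0.18 on the log2 scale (8.55 ± 2.71 against 29.5 ± 2.26 CPM) and Smad5 at −0.44 ± 0.11.

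Regulators of receptors and Smads were called in 9 of 24, 6 lower and 3 higher (median 0.01), a share near that of all genes. The lower ones included the ubiquitin ligases Nedd4l (−1.26 ± 0.15) and Smurf2 (−0.73 ± 0.12), which mark Smads and receptors for degradation, and Pmepa1 (−0.68 ± 0.20) and Ldlrad4 (−0.56 ± 0.18), feedback inhibitors that hold receptor-regulated Smads. Pmepa1 was at 9.70 to 15.1 CPM in GFP+ cells, which overlapped the 11.8 to 15.9 CPM of undivided cells. Ldlrad4, at 21.7 to 32.8 CPM in GFP+ cells, also overlapped undivided cells (31.4 to 50.0 CPM). The deubiquitinase Usp11 (1.13 ± 0.17), Wwp2 (0.40 ± 0.11) and Zfyve16 (0.32 ± 0.12) were higher. Calls were lost without 1 library for Pmepa1 (GFP− replicate 1 or GFP+ replicate 1, adjusted p = 0.0862 and 0.0524), Ldlrad4 (GFP− replicate 1 or 2 or GFP+ replicate 2, 0.0515 to 0.0983) and Wwp2 (GFP+ replicate 2, 0.0542). Zfyve16 passed by little and failed without any 1 of the 6 libraries, with DESeq2 (0.0601) and in a fit blocked by animal (0.0613).

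Nuclear partners of Smads split evenly, with 6 higher and 6 lower of 20 tested (median −0.02), 60% called against 37.1% of all genes. Runx3, a factor of cytotoxic T cells, rose to 471 ± 4.63 from 136 ± 11.8 CPM (1.79 ± 0.12, adjusted p = 2.68e-08) and Runx2 to 178 ± 25.1 from 54.8 ± 15.1 CPM (1.70 ± 0.27). Hdac1 (0.45 ± 0.12) and Zeb2 (1.34 ± 0.43, adjusted p = 0.0295) were also higher, but Zeb2 did not pass in a fit blocked by animal (adjusted p = 0.0627). Without GFP− replicate 1 or 3, or GFP+ replicate 1 or 3, it also failed (0.0885 to 0.107). The co-repressors Tgif2 (−1.15 ± 0.21) and Tgif1 (−0.58 ± 0.15) were lower in GFP+ than in GFP− cells. So were the acetyltransferases Kat2a (−0.89 ± 0.11) and Kat2b (−0.71 ± 0.11). Tgif1 stood at 36.3 to 43.6 CPM in GFP+ and 54.6 to 63.9 CPM in GFP− cells, against 28.2 to 45.3 CPM in undivided cells. Tgif2 stood at 10.7 to 23.6 CPM in GFP+ and 32.9 to 41.1 CPM in GFP− cells, against 19.4 to 25.7 CPM in undivided cells. In the TAK1 branch, which carries TGF-beta signals past the Smads, Tab2 (0.35 ± 0.09) and Map2k4 (0.27 ± 0.08) were higher among 10 tested and none lower. That share of 20% was near the 20.7% of all genes called higher. Map2k4 was lost without any 1 of the 6 libraries (adjusted p 0.0580 to 0.0889) and with upper-quartile scaling, and Tab2 without GFP+ replicate 3 (0.0585) and with that scaling.

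Of 18 tested genes reported as TGF-beta targets, 9 were lower and 5 higher (median −0.21), where 16.5% and 20.7% of all genes were. Among the 13 reaching the cutoff in both fractions, 5 were lower and 4 higher, and the median turned to 0.36. Cdkn2b, called higher, and Itgae, called lower, were among those left out. Several of the listed targets answer to many other signals. Myc, which TGF-beta represses in many cells, fell to 23.7 ± 2.22 from 88.9 ± 9.71 CPM (−1.91 ± 0.23). Junb, which TGF-beta induces, was lower than in GFP− cells, with 598 ± 52.2 against 1980.6 ± 68.4 CPM (−1.73 ± 0.17). Undivided cells held 680 to 1193 CPM of Junb, above every GFP+ library and below every GFP− one. The Junb difference thus includes a higher level in GFP− than in undivided cells. Pmepa1 and Tgif1, already given, were also lower than in GFP− cells, but overlapped undivided cells. Itgae, the CD103 integrin chain that TGF-beta induces, was near the floor and lower at 0.477 ± 0.251 against 1.48 ± 0.223 CPM. In the other direction Cd101 (1.38 ± 0.17), the inhibitory receptor Ctla4 (1.35 ± 0.16) and Id2 (0.60 ± 0.21, adjusted p = 0.0432) rose. Id2 did not pass in a fit blocked by animal (adjusted p = 0.0832) or without any 1 of the 6 libraries but GFP+ replicate 2 (0.0552 to 0.161).

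Markers of T helper cells and of other cells moved with the GFP+ fraction in part. The T helper markers summed to 6619 to 7541 CPM in GFP+ and 4885 to 4983 CPM in GFP− cells, with 6 of 10 higher (Cd28, Cd3e, Cd4, Cd3d, Lck and Trac) and none lower. For this and the next lists, 20.7% of all genes tested were higher and 16.5% lower. Of the CD8 T cell markers Cd8b1 was lower (3.54 against 7.72 CPM, adjusted p = 0.0445) and Cd8a was not called. The B cell markers summed to 14.5 to 23.7 and 13.8 to 16.9 CPM, with Cd79a lower (0.236 against 1.21 CPM, adjusted p = 0.0207) and Cd22 not called. The summed level of 12 macrophage, monocyte and dendritic cell markers was 49.1 to 66.3 CPM in GFP+ and 16.2 to 30.1 CPM in GFP− cells, with 2 of 4 tested genes higher, Cd68 and Itgam, and none at 0 in every library. Plasma cell and myeloma markers summed to 359 to 428 CPM in GFP+ and 350.5 to 356 CPM in GFP− cells. In that list Tnfrsf17 had no count anywhere, and Irf4 and Igkc were higher and Ighm lower. Igkc stood at 76.1 to 82.0 CPM in GFP+ and at most 0.488 CPM in GFP− cells. Jchain and Sdc1 were at most 0.554 and 0.262 CPM in GFP+ cells, and Mzb1 had no count there. The 8 NK and innate lymphoid markers summed to 125 to 142 CPM in GFP+ and 188 to 224 CPM in GFP− cells. Most of that was Gata3, at 111 to 115 CPM in GFP+ and 171 to 192 CPM in GFP− cells. Of 6 tested, 4 were lower (Gata3, Zbtb16, Klrb1c and Il1rl1) and 2 higher. The higher ones were Klrd1 (7.07 to 15.1 CPM in GFP+ against 3.29 to 4.39 CPM in GFP− cells) and Klrc1 (4.62 to 13.2 against 0.723 to 2.19 CPM). Of the fibroblast and platelet markers 4 of 8 and 2 of 6 were at 0 in every library, and their sums reached at most 1.40 and 3.28 CPM. Their part in the values above was not tested.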

How the data were processed

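The members and gene lists were chosen with earlier results of these data known. The values are estimated counts for each gene, in 1 table that the authors deposited. The build GRCm39 and the tools Salmon 1.5.2, STAR 2.7.10a, Trim Galore 0.6.7 and cutadapt 3.4 are named, per the submitters' processing notes, with no order. Libraries were made from 11 ng of RNA after depletion of ribosomal RNA, per the labels' protocols. Of 47 library columns 13 matched a sample by name, and 34 were not used. Between 6.25% and 7.33% of values were not whole, and all were rounded.

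Tests used edgeR 4.0.16 in R 4.3.3 (TMM factors, filterByExpr, robust quasi-likelihood test, two-sided, Benjamini-Hochberg adjustment over 14059 genes, threshold 0.05). All 13 libraries entered 1 model of 5 groups with 8 residual degrees of freedom. Each SE was derived as log2 fold change over the root of F, and 95% intervals use the t distribution of the model. No p-value is given for members where the GFP+ or GFP− libraries entered. Their counts past the threshold there come from the same model and only describe. All members are named. Of each other list, the text names those called genes whose log2 CPM averaged 2 or more, at most 4 in each direction, by size of change. Genes named beyond this (Tgfb1, Bmpr2, Lrrc32, Ltbp4, Bambi, Eng, Tdgf1, Cdkn2b, Itgae, Fn1 and marker genes) were chosen after their values were seen. The code was tested on simulated data.

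GFP+ and GFP− libraries sharing a prefix came from the same animal by that reading, and their deviations from group means correlated at 0.27, 0.10 and 0.07. Pairs without a shared prefix ran from −0.21 to 0.11 and overlapped these, so the correlations cannot settle that reading. Replicates differed beyond counting noise (chi-square per degree of freedom 7.50 to 28.2). Intervals cover the spread between libraries, and floors counting error only. Exon lengths came from GENCODE M21 on GRCm38, not the authors' build. Alternatives were other scalings, filters and tools (DESeq2 1.42.0 and the voom method of limma 3.58.1), a non-robust fit, the groups compared alone, replicate blocks, a test against a fold of 1.5, and the omission of single libraries. Counts of genes reaching the filter cutoff in both sorted fractions were added after seeing the data.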

Additional observations from a re-analysis of the deposited data

How the results depend on the processing

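No member was called in the genotype or the treatment comparison under any alternative run, and in GFP+ against GFP− cells Smad3 stayed higher and the other 9 members lower under all 18. There 8 members passed the threshold, 7 or 8 with 1 library left out, and 3 (Acvrl1, Tgfbr3 and Smad7) when tested against a fold of 1.5. Over all 14059 genes, 5220 passed the threshold there and 2146 at the fold of 1.5. With 1 library left out, 4188 to 4612 genes did. Smad4 was past it under 13 of the 18, and not without GFP+ replicate 1 or 3 or GFP− replicate 2 or 3. Upper-quartile scaling moved the median of all genes by −0.14 there, to 41.4% of called genes higher from 55.7%, and brought Tgfbr2 (−0.26) and Smad2 (−0.37) past it. With that fold of 1.5, members past the threshold were also 3 in treated Eomes-TKO against GFP+ cells (2153 genes in all) and 2 in GFP+ against control cells (2214 genes in all). The other pathway genes past it in GFP+ against GFP− cells came to 26, with 13 higher and 13 lower. With the animal as a replicate block the counts were 8 members and 47 pathway genes (21 higher, 26 lower) among 5157 genes called. With the replicate number they were 8 and 46 among 5401. Of the members and the genes named by size of change, only Id2, Zeb2 and Zfyve16 lost their call in the block by animal. Genes named after their values were seen, among them the markers, were not checked singly under it.

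Over all genes, calls ranged from 0 to 112 in the genotype and 0 to 258 in the treatment comparison across alternatives, the highest without a filter on low counts. Of the pathway lists in the treatment comparison, 2 genes (Fn1 and Runx2) were called without that filter, 1 (Fn1) with DESeq2, and 0 to 1 with 1 library left out (Fn1 without Eomes-TKO 4-1BB replicate 1). Fn1 stood at 2.03 and 2.61 CPM against no count under control IgG. Signs of near-zero values turned, and the cause was not tested. In the genotype comparison Tgfbr3 was −0.033 with the replicate number as a block, and with 1 library left out Tgfbr3 ran from −0.016 to 0.070 (negative if the second library of either genotype was left out), Smad7 from −0.028 to 0.18 and Skil from −0.081 to 0.29 (both negative without Eomes-GFP replicate 2). In the treatment comparison Smad2 ran from −0.21 to 0.14 (positive without 4-1BB replicate 2 or control replicate 3), Smad7 from −0.021 to 0.070 (negative without 4-1BB replicate 1) and Ski from −0.14 to 0.00174 (positive without control replicate 2). Depth limits genes near 3 counts, such as Acvrl1 and Acvr2a in GFP+ cells, and Itgae.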
